A study of Homo sapiens with 16 samples.

Results

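The parental 231 cells are MDA-MB-231, a line from a human breast cancer without hormone receptors or HER2 amplification, and 231:TKO cells were made from it by CRISPR/Cas9 editing of TXNIP followed by isolation of clones from single cells. The comparison described here sets 231:TKO against parental 231 cells after both had been treated with a non-targeting control siRNA (siNT) for 48 hours. Its members are the libraries that the labels give as TXNIP knockout or parental and as si non-targeting, which are 6 of the 16 libraries of the series, 3 of each genotype. The other libraries come from untreated 231:TKO and parental 231 cells (2 each) and from cells given an siRNA against Myc for 48 hours (siMyc, 3 each), and they are used only to set the same genotype contrast beside the siNT-treated one. Parental 231 cells were neither edited nor isolated from single cells, so that the loss of TXNIP and the history of a cloned line cannot be told apart in this contrast, and the number of clones behind 231:TKO is not given in the sources used here.

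TXNIP, thioredoxin interacting protein, is an alpha-arrestin that binds thioredoxin and restrains the uptake of glucose. Its transcription is driven by MondoA, a sugar-sensing factor encoded by MLXIP that pairs with MLX and binds E-box elements, and Myc recognises the same kind of element together with MAX. The question of the siNT-treated pair is which transcripts differ between 231:TKO and parental 231 when Myc has been left in place.

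Each library was an mRNA library counted as read pairs per gene, with totals from 31848151 to 34372015 counts in 231:TKO and from 48203939 to 49254930 in parental 231. Levels are given as CPM, counts as a share of the library total after scaling by the TMM method, and the mean is followed by the SD with n = 3. The study describes the knockout replicates as biological, while the labels number the replicates of both genotypes without naming cultures, so p-values measure the spread between these samples. The 231:TKO libraries were counted in an earlier and the parental 231 libraries in a later Ensembl release, and the names in the headers of the count tables begin with different numbers for the genotypes (18604 and 19208), so that genotype and this prefix cannot be told apart. The release can be set aside only for genes with unchanged exons and unchanged overlap with other genes. Parental 231 replicate 1 stood apart from its group. Among 13485 genes above 1 CPM it lay more than 1 log2 unit from replicates 2 and 3 at 254 and 248 genes, against 28 genes between replicates 2 and 3 and 2 to 4 between the 231:TKO libraries. Its deviation followed gene length, from a median of 0.41 on the log2 scale for genes under 1 kb to -0.34 for genes over 8 kb. Gene length here and in the offsets is that of all annotated exons together, which can exceed the length of a transcript. Values without it are given where they change a call or move a count or a called value by more than 1.5 times. Leaving it out raised the calls over all genes as well, from 3759 higher and 4819 lower to 5060 and 5815.

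Mesenchymal markers of the line were in place in both genotypes. All 8 markers of a mesenchymal triple-negative line that were sought had counts, with a summed level of 5076 to 5268 CPM in 231:TKO and 4940 to 5389 CPM in parental 231. Another 5 were sought as low or absent: ESR1, PGR, ERBB2, EPCAM and CDH1. They were not absent as a group, with a sum of 97.8 to 101.8 CPM in 231:TKO and 104.3 to 118.5 CPM in parental 231. Of the 4 tested, 1 was higher and 2 were lower. ESR1 itself had 9 counts over the 231:TKO libraries and 1 over the parental 231 libraries. Of 5 leukocyte markers, 3 passed the filter on low counts and all 3 were lower in 231:TKO, as were 20.7% of all genes tested. Their summed level was 2.21 to 2.54 CPM against 8.01 to 9.57 CPM. PTPRC, the defining marker, had 1 count over the 231:TKO libraries and 123 over the parental 231 libraries. It fell together with the 2 others, CD68, with 81.6% of its exons under another gene, and LYZ. SPN, another gene of white blood cells, rose by 5.71 on the log2 scale. The labels name only 231 and TKO cells, and the presence of other cells was not tested. The sum of luminal markers was 30.9 to 33.1 CPM against 39.8 to 42.4 CPM and that of fibroblast markers 14.5 to 15.6 CPM against 11.1 to 12.1 CPM. Markers of endothelial cells and of skeletal myoblasts stayed at or below 0.216 CPM in sum. In such bulk samples, fewer cells of a type and less RNA per cell cannot be told apart.

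The targeted gene was strongly reduced in every 231:TKO library. TXNIP (ENSG00000265972, chromosome 1 from 145992435 to 145996579 on GRCh38, minus strand) was at 6.84, 7.99 and 6.61 CPM in the siNT-treated 231:TKO libraries and at 317, 302 and 298 CPM in parental 231. The groups lay far apart, at 7.15 ± 0.74 and 306 ± 9.79 CPM (SD, n = 3), with a log2 fold change of -5.42 (SE 0.11, adjusted p = 2.74e-10, edgeR with Benjamini-Hochberg adjustment over 23310 genes). In untreated cells the same contrast was less even, with 12.6 and 46.6 CPM in 231:TKO against 290 and 291 CPM in parental 231, a log2 fold change of -3.29 that did not pass the test (adjusted p = 0.0587, edgeR). The difference between the siNT-treated and the untreated contrast was -2.13 for TXNIP and did not pass its own test (adjusted p = 0.0837, edgeR). MYC (ENSG00000136997) was at 123, 146 and 132 CPM in 231:TKO and at 124, 126 and 130 CPM in parental 231. Its groups overlapped, and its log2 fold change of 0.07 (SE 0.09, adjusted p = 0.562, edgeR) did not pass the test.

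The promoter of TXNIP is shown because the study turns on how this gene is read, and that of ARRDC4, the alpha-arrestin best known for sharing control by MondoA, is shown next to it. The windows run from 250 bases before the transcription start to 50 bases after it and are credited to RefSeq on GRCh38.p14 (TXNIP at chr1:145996530-145996829 on the minus strand, ARRDC4 at chr15:97960453-97960752 on the plus strand). Capitals mark the forkhead motif TGTTTAC, here on the opposite strand, in TXNIP and the E-box CACGTG in ARRDC4, with first bases 124 and 210 bases before the start.
TXNIP: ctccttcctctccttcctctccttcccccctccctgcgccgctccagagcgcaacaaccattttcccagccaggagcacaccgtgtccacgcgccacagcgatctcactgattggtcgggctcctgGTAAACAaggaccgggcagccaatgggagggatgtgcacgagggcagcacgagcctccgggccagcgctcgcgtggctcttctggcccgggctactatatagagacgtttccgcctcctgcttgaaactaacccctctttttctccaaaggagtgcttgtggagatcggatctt
ARRDC4: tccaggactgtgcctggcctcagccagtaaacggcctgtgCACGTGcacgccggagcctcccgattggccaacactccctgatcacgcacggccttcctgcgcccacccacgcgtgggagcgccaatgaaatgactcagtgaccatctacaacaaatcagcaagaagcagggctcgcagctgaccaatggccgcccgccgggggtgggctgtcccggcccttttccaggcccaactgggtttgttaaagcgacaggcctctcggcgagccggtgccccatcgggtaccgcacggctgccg
Both strands were searched, and the palindromic E-box was counted once. Of 27305 RefSeq promoter windows, 7.4% held CACGTG and 3.4% held TGTTTAC. Among tested genes with a window, the E-box stood in 9.6% of all, in 12.1% of those higher in siNT-treated 231:TKO and in 7.6% of those lower. The study describes a double E-box in the TXNIP promoter for which Myc and MondoA compete. Only the exact letters CACGTG were searched, and the TXNIP window does not hold them. An E-box with other letters would therefore be left unmarked. A match is a run of letters in the window and not a measured binding site, which holds for the forkhead match as well.

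Among the relatives of TXNIP and the factors that drive them, ARRDC4 and ARRDC2 were lower in 231:TKO and ARRDC3 was higher. ARRDC4 was at 1.90, 2.31 and 2.37 CPM in 231:TKO and at 4.45, 6.02 and 4.91 CPM in parental 231, without overlap, with a log2 fold change of -1.23 (SE 0.17). Between untreated cells the log2 fold change of ARRDC4 was 0.58. ARRDC2 fell from 44.4 ± 2.93 to 24.8 ± 2.32 CPM, a change of -0.84 (SE 0.10), and ARRDC3 rose from 42.5 ± 2.33 to 54.2 ± 2.36 CPM, a change of 0.35 (SE 0.09). ARRDC1, at -0.19, did not pass the test. MLX, at 0.07, MLXIPL (the sugar-sensing partner of MLX known as ChREBP), at 0.14, and MLXIP, at -0.02, did not pass it either. MLXIP is the member on which parental 231 replicate 1 decides the call: this library held 72.2 CPM against 112 and 123 CPM in replicates 2 and 3, and without it the log2 fold change was -0.20 and passed the test.

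Across all genes, 3759 were higher (16.1% of those tested) and 4819 were lower (20.7%) in siNT-treated 231:TKO than in parental 231 by edgeR's quasi-likelihood test at an adjusted p-value of at most 0.05. The median log2 fold change of all tested genes was -0.03. These shares include genes below 1 CPM, whereas the members of most lists below lay mostly above it. Among genes above 1 CPM the shares varied with gene length. They were 24.0% higher and 25.9% lower from 4 to 8 kb, 14.6% and 39.0% from 2 to 4 kb, and 32.2% and 14.2% over 8 kb. Of the regulated genes, 1359 of the higher and 1826 of the lower changed by more than 1 on the log2 scale, and 300 and 634 by more than 3. For 51.4% of the tested genes the 3 libraries of a genotype lay wholly above or below those of the other, so a lack of overlap by itself singles out no gene here. Some calls fell on genes whose annotation changed. Of 41 tested genes whose exons were newly covered by another gene over more than 10% of their length in the later release, 26 (63.4%) were higher in 231:TKO, and these genes gave 17 of the 300 largest rises. Genes with unchanged exons and overlaps were higher in 15.8% and lower in 20.4% of cases. The largest changes named next are for genes with the same length in both releases. Of the genes given with values further on, CDH1, CLDN4, SMAD7, SPP1, PTGS2, RIGI, RSAD2, IFITM1, OAS1, TAP1, MMP1, PRKAG1, SLC16A3 and COL4A4 had other exons, or another overlap with other genes, in the later release. The length of PRKAG1 was the same in both, so equal length does not exclude such a change.

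**Figure D1:**
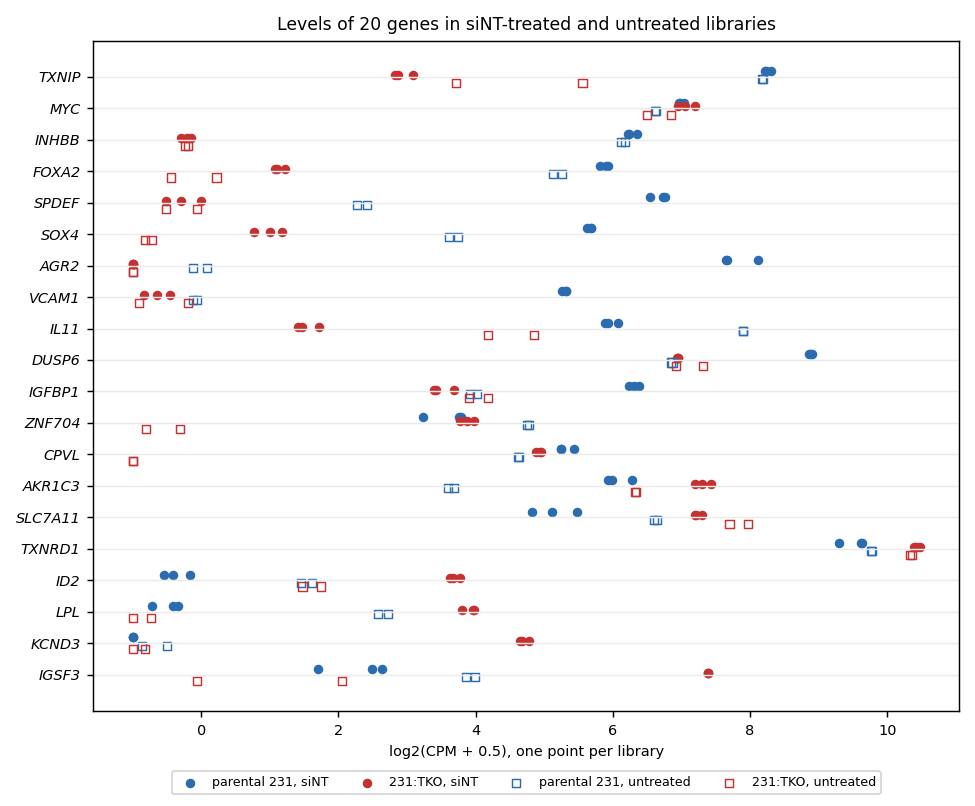
Levels of 20 genes in single libraries, on the log2 scale after adding 0.5 CPM. Filled circles are siNT-treated libraries (3 of each genotype) and open squares untreated libraries (2 of each), red for 231:TKO and blue for parental 231. TXNIP, INHBB and FOXA2 were low in 231:TKO with both treatments, whereas ZNF704 and CPVL were low only in the untreated 231:TKO libraries and KCND3, ID2 and IGSF3 stood highest in the siNT-treated ones.

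The genes that the study names for the untreated knockout gave a divided picture with siNT. INHBB, the beta-B subunit of activins and inhibins, was at 0.312, 0.370 and 0.399 CPM in 231:TKO and at 73.8, 75.2 and 81.2 CPM in parental 231, a log2 fold change of -7.72 (SE 0.14). KISS1, which encodes the metastasis-suppressing peptide kisspeptin, fell from 3.43 ± 1.13 to 0.234 ± 0.170 CPM, a change of -3.86 (SE 0.42). FOXA2, a forkhead factor of endodermal lineages, fell from 58.3 ± 2.46 to 1.70 ± 0.13 CPM, a change of -5.10 (SE 0.12). These falls were also present between untreated cells, at -7.58, -4.83 and -6.31, and the difference between treatments passed its test for FOXA2 alone among them, at 1.21 (adjusted p = 0.0185, edgeR). ZNF704, a zinc finger factor, was at 14.1, 13.1 and 15.3 CPM in siNT-treated 231:TKO and at 8.90, 13.0 and 13.3 CPM in parental 231, and its groups overlapped. Its log2 fold change was 0.28 (SE 0.15, adjusted p = 0.174, edgeR) with siNT, and -7.10 between untreated cells.

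On the rising side, AKR1C3, an aldo-keto reductase that acts on steroids and prostaglandins, was at 172, 146 and 157 CPM in 231:TKO and at 77.4, 60.4 and 62.7 CPM in parental 231. Its rise of 1.24 (SE 0.11) was smaller than the 2.73 between untreated cells, and the difference of -1.50 passed its test (adjusted p = 7.29e-05, edgeR). MT-ATP8, the mitochondrial gene for an ATP synthase subunit, rose by 0.36 (SE 0.09), from 362 ± 9.62 to 463 ± 34.9 CPM, against 2.19 between untreated cells. The gene overlaps MT-ATP6 over 22.2% of its length, so reads of the overlap could be given to either. G0S2, an inhibitor of the lipase that breaks down triglycerides, was at 128, 146 and 131 CPM in 231:TKO and at 169, 125 and 124 CPM in parental 231. The groups overlapped, with a log2 fold change of -0.04 that did not pass the test, whereas it was 3.18 between untreated cells and the difference of -3.23 passed its own test (adjusted p = 3.49e-05, edgeR). The level that stood apart in the untreated libraries was that of parental 231 for G0S2, at 17.5 and 17.9 CPM, and that of 231:TKO for ZNF704, at 0.306 and 0.0702 CPM.

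The genes with the largest rises included an ion channel, a lipase and a helix-loop-helix inhibitor. KCND3, a voltage-gated potassium channel subunit, was at 24.6, 25.1 and 27.0 CPM in 231:TKO and had 0 counts in all 3 parental 231 libraries, which makes it at least 1221-fold higher against a floor of 3 counts over the group. LDLRAD4, a transmembrane inhibitor of TGF-beta signalling, had 910 counts in 231:TKO and 3 in parental 231, a ratio of 423 after scaling with a 95% counting interval of 144 to 2056. Intervals and floors account for counting error alone, since PCR copies were not told apart by identifiers. TNS1, a focal adhesion protein that links integrins to actin, rose from 0.335 ± 0.159 to 30.7 ± 1.75 CPM, a log2 fold change of 6.51 (SE 0.21).

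LPL, lipoprotein lipase, was at 13.4, 15.2 and 15.1 CPM in 231:TKO and at 0.106, 0.288 and 0.253 CPM in parental 231. ID2, which blocks helix-loop-helix factors from binding DNA, was at 13.2, 12.2 and 11.8 CPM against 0.254, 0.390 and 0.190 CPM. Both were raised in every 231:TKO library, by 6.05 (SE 0.22) and 5.46 (SE 0.20) on the log2 scale. IGSF3, an immunoglobulin superfamily membrane protein, reached a far higher level, at 167, 167 and 166 CPM against 2.75, 5.11 and 5.71 CPM, a change of 5.20 (SE 0.24). Other genes of the upper group were SPN, the sialophorin of white blood cells, CLIC2, KCNK5 (a potassium leak channel), PPP1R14C, TREML2, SLCO2B1 (an organic anion transporter) and DGKG (a diacylglycerol kinase), with log2 fold changes from 4.89 to 6.40 and with parental 231 means between 0.0280 and 1.27 CPM.

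The genes with the largest falls had few or no counts in 231:TKO. AGR2, a disulfide isomerase of mucus-secreting cells, had 0 counts in all 3 231:TKO libraries and was at 278, 202 and 201 CPM in parental 231, which makes it at least 7772-fold lower. ATP10A, a phospholipid flippase, and TSPAN8, a tetraspanin of epithelial cells, were likewise at 0 in 231:TKO and at 32.2 ± 6.95 and 31.7 ± 6.81 CPM in parental 231, at least 1105-fold and 1087-fold lower. PCDH7, a protocadherin, and DSC2, the desmosomal cadherin desmocollin, had 1 count each over the 231:TKO libraries and 1824 and 1450 counts over the parental 231 libraries. The ratios were 1307 (95% counting interval 234 to 51660) and 1039 (186 to 41080). The long noncoding RNA LINC01929 fell from 59.4 ± 4.21 to 0.0972 ± 0.0145 CPM, a log2 fold change of -9.21 (SE 0.17).

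Another 9 genes of the lower group had 0 counts in every 231:TKO library and between 2.27 and 4.80 CPM in parental 231, so that they were at least 77.8-fold to 164-fold lower. They were ID4, a second helix-loop-helix inhibitor, PLA2G4A (the cytosolic phospholipase that releases arachidonic acid), C1orf115, SPOCK3, GKN2, SMIM31, ASRGL1, TMEM47 and SERPIND1. ID2 and ID4 thus changed in opposite directions, with ID2 near the floor in parental 231 and ID4 at 0 in 231:TKO.

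Factors that set epithelial lineage were among the most changed transcripts. Of 27 tested lineage transcription factors, 8 were higher and 13 were lower, against 16.1% and 20.7% of all genes, with a median log2 fold change of -0.49 (-0.03 over all genes). With offsets that take out the shift of windows of 20 Mb along the chromosomes, 7 were higher and 11 lower and the median was -0.14, and between untreated cells 3 of 20 were higher and 5 lower, with a median of -0.12. SPDEF, an ETS factor of luminal and secretory epithelium, was at 0.312, 0.494 and 0.200 CPM in 231:TKO and at 108, 92.6 and 106 CPM in parental 231, a log2 fold change of -8.25 (SE 0.20). SOX4, an SRY-related factor active in many carcinomas, was at 1.76, 1.51 and 1.20 CPM against 51.0, 48.8 and 50.9 CPM, a change of -5.07 (SE 0.14). SPDEF, SOX4 and FOXA2 were at 1.84 CPM or less in every 231:TKO library and at 48.8 CPM or more in every parental 231 library. TFAP2C, an AP-2 factor, rose by 1.53 (SE 0.13), SOX9 by 1.06 (SE 0.09) and RUNX2, the factor of bone-forming cells, by 0.85 (SE 0.10). For RUNX2, offsets for windows of 20 Mb gave 1.25.

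Of 33 tested genes for factors of epithelial-mesenchymal transition (EMT), cadherins and junctions, 4 were higher and 19 were lower, with a median of -0.53. The list mixes epithelial and mesenchymal genes. CDH1, E-cadherin, was at 0.879, 0.679 and 0.798 CPM in 231:TKO and at 5.0, 7.35 and 7.96 CPM in parental 231, a log2 fold change of -3.10 (SE 0.22). KRT81, a hair-type keratin, fell from 72.2 ± 11.1 to 7.46 ± 0.45 CPM, a change of -3.28 (SE 0.13). DSC2, described above, had the largest fall of the list. The members that rose most were S100A4, a calcium-binding protein of motile cells (0.57, SE 0.16), and the tight junction claudins CLDN3 (0.57, SE 0.19) and CLDN4 (0.47, SE 0.10). CLDN3 was close to 2 CPM, and its call was lost when single libraries were left out. In untreated cells 2 members of 30 tested were higher and 8 were lower, where 5.44% and 4.18% of all genes tested were called, with a median of -0.17.

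**Figure D2:**
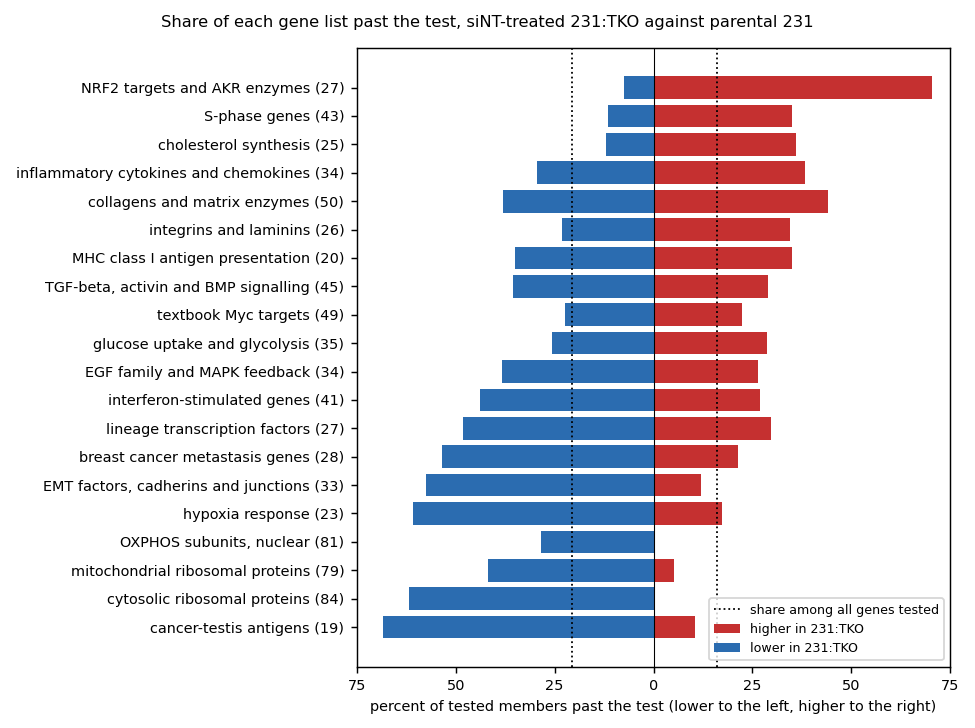
Percent of the tested members of each gene list that passed the test, drawn to the left when lower and to the right when higher in siNT-treated 231:TKO, with the number of tested members in parentheses. Dotted lines mark the shares among all genes tested, 20.7% lower and 16.1% higher. These include genes below 1 CPM, whereas the members of most lists lay mostly above it. For genes above 1 CPM with a length of 4 to 8 kb the shares were 25.9% lower and 24.0% higher. Of the NRF2 list 19 of 27 members were higher, and of the cytosolic ribosomal proteins 52 of 84 were lower and 0 higher.

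Enzymes of the oxidant response were mostly higher. NRF2 (NFE2L2) is the factor that cells stabilise under oxidants by releasing it from KEAP1, and it switches on genes for glutathione, thioredoxin and NADPH supply. Of 27 tested NRF2 targets and aldo-keto reductases, 19 were higher and 2 were lower, against 16.1% and 20.7% of all genes, with a median of 0.49. Over all 27 members the groups did not overlap for 19 upward and 2 downward. Over all genes tested these shares were 23.8% and 27.7%. In untreated cells 12 members were higher and 0 lower, with a median of 0.45, and 9 members were higher in both contrasts.

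SLC7A11, the cystine importer that feeds glutathione synthesis, was at 148, 147 and 158 CPM in 231:TKO and at 27.8, 43.9 and 34.3 CPM in parental 231, with a log2 fold change of 2.09 (SE 0.15). TXNRD1, thioredoxin reductase, which keeps thioredoxin reduced, was at 1337, 1426 and 1369 CPM against 627, 788 and 793 CPM, a change of 0.90 (SE 0.11). Every 231:TKO library lay above every parental 231 library for both. Between untreated cells they rose as well, by 1.22 and 0.58. ME1, malic enzyme, which makes NADPH, rose from 29.9 ± 1.23 to 73.4 ± 2.04 CPM, a change of 1.29 (SE 0.09), but offsets for windows of 20 Mb lowered this to 0.65, and between untreated cells it was -0.01.

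Other members, chosen after their values were seen, were FTL, the ferritin light chain (1.16, SE 0.11), NQO1, a quinone reductase (0.90, SE 0.09), HMOX1, heme oxygenase (0.76, SE 0.11), GCLM, the modifier subunit of the enzyme that starts glutathione synthesis (0.38, SE 0.08), and NFE2L2 itself (0.49, SE 0.08, and 0.14 without a call with offsets for windows of 20 Mb). KEAP1 was lower with siNT, from 145 ± 7.96 to 111 ± 2.10 CPM, with a log2 fold change of -0.39 (SE 0.08). This value fell to -0.07 and lost its call with offsets for windows of 20 Mb. Between untreated cells KEAP1 was instead called higher, at 0.45 (adjusted p = 0.0181, edgeR). AKR1C2, a close relative of AKR1C1 and AKR1C3 with which it can share reads, was at 1.92 ± 0.15 CPM against 3.80 ± 0.43 CPM, a change of -0.99 (SE 0.16).

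**Figure D3:**
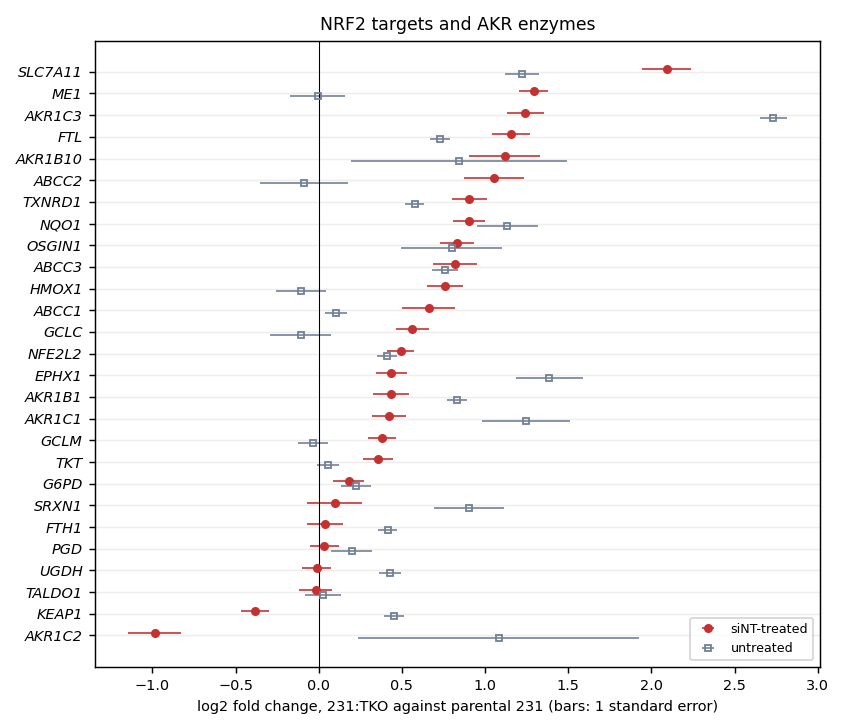
Log2 fold change of 231:TKO against parental 231 for the 27 members of the NRF2 list, red circles for siNT-treated and grey squares for untreated cells, with bars of 1 standard error. With siNT, SLC7A11 had the largest value, 2.09, and AKR1C2 the lowest, -0.99, while AKR1C3 lay higher between untreated cells (2.73) than with siNT (1.24).

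Promoters of 3 members that rose are printed because they held the core of the antioxidant response element to which NRF2 binds, TGACNNNGC, on either strand. Capitals mark the matches in RefSeq windows on GRCh38.p14 (ME1 at chr6:83431002-83431301, minus strand, GCLM at chr1:93909381-93909680, minus strand, TXNRD1 at chr12:104215529-104215828, plus strand).
ME1: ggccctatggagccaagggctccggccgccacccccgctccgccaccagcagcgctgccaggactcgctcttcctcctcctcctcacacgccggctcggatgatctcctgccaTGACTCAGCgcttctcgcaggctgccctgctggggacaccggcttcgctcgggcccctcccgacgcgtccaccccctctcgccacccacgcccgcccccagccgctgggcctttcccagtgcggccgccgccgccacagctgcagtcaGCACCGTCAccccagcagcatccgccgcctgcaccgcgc
GCLM: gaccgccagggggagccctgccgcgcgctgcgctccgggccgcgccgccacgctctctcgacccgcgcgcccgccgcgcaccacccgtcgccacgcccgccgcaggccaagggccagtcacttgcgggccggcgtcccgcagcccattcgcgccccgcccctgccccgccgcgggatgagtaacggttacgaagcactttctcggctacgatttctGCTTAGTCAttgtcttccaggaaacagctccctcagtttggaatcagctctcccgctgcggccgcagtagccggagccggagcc
TXNRD1: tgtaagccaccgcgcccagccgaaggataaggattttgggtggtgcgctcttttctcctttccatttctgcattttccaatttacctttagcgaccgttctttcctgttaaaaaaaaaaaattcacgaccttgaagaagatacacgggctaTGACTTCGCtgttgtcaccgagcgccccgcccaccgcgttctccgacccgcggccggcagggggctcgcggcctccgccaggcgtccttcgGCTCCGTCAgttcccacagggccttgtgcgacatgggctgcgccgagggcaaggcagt
The matches begin 137 bases before and 12 bases after the start in ME1, 34 bases before it in GCLM, and 99 and 8 bases before it in TXNRD1. Of the 19 higher members, 14 had a window and 3 of these (21.4%) held the core, against 14.9% of tested genes and 13.6% of all windows.

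In the thioredoxin system TXNRD1 was the 1 member of 20 tested that rose, and 4 members were lower. The median was -0.18, and its sign turned with offsets for gene length (0.004). Without parental 231 replicate 1, 4 members were higher and 4 lower. MSRB3, a methionine sulfoxide reductase, fell from 33.2 ± 2.34 to 16.0 ± 0.14 CPM, a log2 fold change of -1.05 (SE 0.09). PRDX2, a peroxiredoxin, changed by -0.71 (SE 0.11) and GLRX, a glutaredoxin, by -0.69 (SE 0.12).

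Genes of the hypoxia response were lower as a group. Of 23 tested members 4 were higher and 14 were lower, against 16.1% and 20.7% of all genes, with a median of -0.41. Between untreated cells 0 were higher and 7 lower, against 5.44% and 4.18% of all genes, with a median of -0.25. CA9, a carbonic anhydrase that is a marker of hypoxic tumour cells, was at 0.0567, 0.0925 and 0.114 CPM in 231:TKO and at 5.04, 3.43 and 3.9 CPM in parental 231, a log2 fold change of -5.51 (SE 0.31). CA12 fell from 75.7 ± 12.9 to 21.2 ± 0.61 CPM, a change of -1.83 (SE 0.13), and ANKRD37 by 1.34 on the log2 scale (SE 0.18). Both carbonic anhydrases were lower in every siNT-treated 231:TKO library. Between untreated cells CA12 and ANKRD37 had positive log2 fold changes, 0.38 and 0.84. The largest of the 4 rises were those of ERO1A, an oxidase of the endoplasmic reticulum (0.50, SE 0.08), INSIG2 (0.46, SE 0.10) and KDM3A, a histone demethylase (0.40, SE 0.11). The value for INSIG2 was -0.01 with offsets for windows of 20 Mb.

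Carbohydrate uptake and glycolysis had no common direction. Of 35 tested members 10 were higher and 9 lower, with a median of -0.13. SLC2A12, a glucose transporter, rose from 9.64 ± 1.87 to 21.0 ± 0.60 CPM (log2 fold change 1.12, SE 0.14, and 0.54 with offsets for windows of 20 Mb), and PDK3, a kinase that restrains pyruvate dehydrogenase, rose by 0.83 (SE 0.09). SLC16A3, the lactate exporter MCT4, fell from 827 ± 52.6 to 491 ± 37.6 CPM, a change of -0.75 (SE 0.09). ALDOC, an aldolase, changed by -0.99 (SE 0.17).

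Partners and targets of Myc did not move together. Of 12 tested factors of the Myc network 2 were higher and 4 lower, with a median of 0.02, and of 49 textbook Myc targets 11 were higher and 11 lower, with a median of -0.04. With offsets for gene length 15 of the targets were higher and 7 lower, and between untreated cells 7 were higher and 2 lower, with a median of 0.10. MXD4, which competes with Myc for MAX, fell from 105 ± 1.97 to 44.7 ± 2.46 CPM, a log2 fold change of -1.23 (SE 0.09), and MXD3 changed by -0.68 (SE 0.15). MAX rose by 0.41 (SE 0.09) and MNT, another MAX partner, by 0.50 (SE 0.14). Among the targets, TFRC, the transferrin receptor, rose from 392 ± 65.7 to 775 ± 26.4 CPM, a change of 0.98 (SE 0.12), and TERT, the catalytic subunit of telomerase, fell from 2.25 ± 0.07 to 0.423 ± 0.194 CPM, a change of -2.42 (SE 0.28). Without parental 231 replicate 1 the targets stood at 17 higher and 13 lower, with a median of 0.02. The E-box stood in 16 of 42 promoter windows of these targets (38.1%).

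Ligands and feedback genes of growth factor signalling showed large single changes. In the epidermal growth factor (EGF) and MAPK list, 9 of 34 members were higher and 13 lower, with a median of -0.12. The median was 0.01 with offsets for windows of 20 Mb and 0.22 between untreated cells. DUSP6, a phosphatase that is switched on by ERK and shuts it off, was at 123, 123 and 122 CPM in 231:TKO and at 480, 475 and 463 CPM in parental 231. Its log2 fold change was -1.95 (SE 0.08), while between untreated cells, where parental 231 held 117 and 115.2 CPM, it was 0.27. DUSP1 fell from 39.4 ± 1.87 to 10.3 ± 0.60 CPM, a change of -1.93 (SE 0.10), and NRG1, the ligand neuregulin 1, from 99.96 ± 1.05 to 31.3 ± 2.18 CPM, a change of -1.67 (SE 0.09). EGF rose from 2.35 ± 0.53 to 9.95 ± 0.59 CPM, a change of 2.08 (SE 0.16), and FOSL1, an AP-1 subunit, from 193 ± 18 to 397 ± 10.6 CPM, a change of 1.04 (SE 0.09).

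Of 45 tested genes of transforming growth factor beta (TGF-beta), activin and BMP signalling, 13 were higher and 16 lower, with a median of -0.15 whose sign turned with offsets for windows of 20 Mb (0.03). The largest fall was that of the ligand subunit INHBB, and BMP2, a bone morphogenetic protein, fell from 2.24 ± 0.49 to 0.0782 ± 0.0187 CPM, a log2 fold change of -4.79 (SE 0.34). SMAD7, an inhibitor of the pathway that the pathway itself switches on, was at 26.7, 28.4 and 25.8 CPM in 231:TKO and at 7.12, 7.41 and 7.46 CPM in parental 231. Its rise of 1.88 (SE 0.10) was also present between untreated cells, at 1.53. Its gene length was 5033 bases in the earlier release and 3946 in the later. TGFBI, a matrix protein induced by TGF-beta, rose by 1.17 (SE 0.09).

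Secreted factors and adhesion molecules associated with breast cancer metastasis were lower for the most part. Of 28 tested members of that list 6 were higher and 15 lower, with a median of -0.58. VCAM1, the adhesion receptor for leukocyte integrins, was at 0.142, 0.0617 and 0.228 CPM in 231:TKO and at 39.2, 39.3 and 37.8 CPM in parental 231, a log2 fold change of -8.03 (SE 0.20). IL11, a cytokine that drives bone metastasis, was at 2.16, 2.78 and 2.28 CPM against 67.0, 58.5 and 60.3 CPM, a change of -4.69 (SE 0.13). Both were lower in every 231:TKO library, although VCAM1 was below 0.5 CPM in all 4 untreated libraries. ADAMTS1, a metalloproteinase, had 3 counts over the 231:TKO libraries and 1749 over the parental 231 libraries, a ratio of 418 (95% counting interval 143 to 2028). PTGS2, cyclooxygenase 2, had 1 count against 1304, a ratio of 935 (168 to 36940). SPP1, osteopontin, rose from 0.481 ± 0.036 to 6.18 ± 0.30 CPM, a change of 3.68 (SE 0.17), TNC, tenascin C, by 1.08 (SE 0.23), and ST6GALNAC5, a sialyltransferase, by 1.38 (SE 0.15).

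Interferon-stimulated genes split. Of 41 tested members 11 were higher and 18 lower, with a median of -0.10, or -0.16 without parental 231 replicate 1. RSAD2, the antiviral enzyme viperin, rose from 10.3 ± 0.69 to 30.0 ± 2.08 CPM, a log2 fold change of 1.53 (SE 0.10), and IFIH1, the RNA sensor MDA5, from 28.6 ± 2.48 to 61.5 ± 5.77 CPM, a change of 1.11 (SE 0.11). RIGI, the RNA sensor RIG-I, was at 141 ± 16.1 CPM in 231:TKO and 4.59 ± 1.42 CPM in parental 231, but in the later release its exons were longer (10345 bases against 4640) and 43.2% of them were covered by another gene, and untreated parental 231, counted in the earlier release, held 120 and 118 CPM. The part of the annotation in its change of 4.94 was not tested. OAS1, an activator of RNase L, changed by -1.59 (SE 0.10) and BST2, tetherin, by -1.57 (SE 0.13). IFITM1 changed by -2.03 (SE 0.11), and here another gene covered 37.5% of its exons in the earlier release and 21.1% in the later.

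Of 20 tested genes of antigen presentation by MHC class I, 7 were higher and 7 lower, and with offsets for windows of 20 Mb 10 were higher and 3 lower, with a median of 0.31. The proteasome subunits PSMB9 and PSMB10 changed by -1.01 (SE 0.13) and -1.08 (SE 0.13), the latter with 39.4% of its exons under another gene in both releases, and the peptide transporter TAP1 by -0.78 (SE 0.09). PSMB9 and TAP1 lie on the short arm of chromosome 6, whose windows were shifted downward with siNT, and with the offsets their values were -0.58 and -0.36. NLRC5, which activates the class I genes, rose from 29.7 ± 6.2 to 50.2 ± 2.04 CPM, a log2 fold change of 0.75 (SE 0.14). Inflammatory cytokines and chemokines numbered 13 higher and 10 lower of 34. CCL2, which draws monocytes, was at 38.5, 38.9 and 41.5 CPM in 231:TKO and at 6.21, 3.9 and 5.03 CPM in parental 231, a change of 2.97 (SE 0.15), and IL24 rose by 1.88 (SE 0.13).

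Matrix genes changed often and in both directions. Of 50 tested collagens and matrix enzymes 22 were higher and 19 lower, and of 26 integrins and laminins 9 and 6, or 10 and 10 without parental 231 replicate 1. COL1A2, a chain of type I collagen, fell from 16.2 ± 3.35 to 0.518 ± 0.110 CPM, a log2 fold change of -4.97 (SE 0.22), and MMP1, interstitial collagenase, from 20.1 ± 0.33 to 2.12 ± 0.23 CPM, a change of -3.24 (SE 0.12). MMP16, a membrane-bound metalloproteinase, rose from 1.38 ± 0.52 to 13.1 ± 1.32 CPM, a change of 3.24 (SE 0.22), and COL4A4, a basement membrane collagen, by 2.33 (SE 0.16). The laminin LAMB1 rose by 1.42 (SE 0.13), and the collagen receptor ITGA10 changed by -3.45 (SE 0.25).

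Cancer-testis antigens, germline genes that tumours reactivate, had the lowest median of the 29 lists. Of 19 tested members 2 were higher and 13 lower, with a median of -2.52. MAGEC1 was at 0.199, 0.0617 and 0.0855 CPM in 231:TKO and at 14.8, 18 and 18.1 CPM in parental 231, a log2 fold change of -7.15 (SE 0.24), and PAGE5 fell from 8.29 ± 1.47 to 0.0971 ± 0.0426 CPM, a change of -6.37 (SE 0.28). MAGEA6 had 1 count over the 231:TKO libraries and 679 over the parental 231 libraries. Members of these families have near-identical copies between which reads can be split, so the values of single members are uncertain. The summed level of the list was 19.0 to 21.6 CPM in 231:TKO and 86.3 to 119 CPM in parental 231.

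Enzymes of cholesterol synthesis numbered 9 higher and 3 lower of 25, led by HMGCS1 (from 86.1 ± 8.38 to 174 ± 3.5 CPM, 1.01, SE 0.09) and LSS (0.77, SE 0.09). The median of the list was 0.06, and -0.0006 with offsets for windows of 20 Mb. Without parental 231 replicate 1, 12 were higher and 6 lower, with a median of 0.01. Genes of the integrated stress response numbered 4 higher and 5 lower of 24, with MTHFD2 at 0.82 (SE 0.09), PHGDH at -1.51 (SE 0.20) and CHAC1 at -1.86 (SE 0.25), and 6 higher and 8 lower without that library. In the BCL2 family 4 of 16 were higher and 5 lower (7 and 6 without that library), with BCL2L11, the death activator BIM, at 1.20 (SE 0.11) and BAK1 at -0.87 (SE 0.09). Lipid droplet and lipolysis genes numbered 5 higher and 7 lower of 23, and YAP and TEAD targets 7 and 7 of 28, the latter 11 and 12 without that library. S-phase genes numbered 15 higher and 5 lower of 43, with a median of 0.13, and G2/M genes 14 and 6 of 54, with a median of 0.01. Without that library these counts were 23 and 6 for S phase and 24 and 11 for G2/M, with medians of 0.18 and 0.11. The counts over all genes rose too, from 3759 higher and 4819 lower to 5060 and 5815, so a larger count without that library is not particular to a list.

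Cytosolic ribosomal protein genes were mostly lower with siNT, to an extent that depended on 1 library. For mitochondrial ribosomal proteins and subunits of oxidative phosphorylation the lower median rested largely on that library. Of 84 tested cytosolic ribosomal protein genes 0 were higher and 52 lower, with a median of -0.43. Without parental 231 replicate 1 the count was 6 higher and 53 lower and the median -0.21, and with offsets for gene length 2 higher, 37 lower and -0.33. Of 79 mitochondrial ribosomal protein genes 4 were higher and 33 lower, with a median of -0.23, and without that library 18 were higher and 34 lower, with a median of -0.05. Of 81 nuclear genes of oxidative phosphorylation 0 were higher and 23 lower, with a median of -0.20, and without it 21 were higher and 26 lower, with a median of -0.01. With offsets for gene length the mitochondrial ribosomal protein genes numbered 13 higher and 23 lower, with a median of -0.06. Those of oxidative phosphorylation then numbered 11 and 16, with a median of -0.04.

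RPL41, one of the shortest ribosomal protein transcripts, shows the pattern in single libraries, with 166, 172 and 169 CPM in 231:TKO and 549, 369 and 357 CPM in parental 231. It remained lower without parental 231 replicate 1, at -1.08 against -1.33 (SE 0.15) with it. RPL31 stood at -0.81 against -1.08 (SE 0.17). NDUFB7, a subunit of complex I, fell from 138 ± 34.3 to 66.4 ± 5.80 CPM, a log2 fold change of -1.06 (SE 0.16) that was -0.82 without that library. Between untreated cells the medians lay on the other side of zero, at 0.20, 0.11 and 0.28 for the 3 lists, with 25, 12 and 29 members higher and 1, 0 and 0 lower. The transcripts of the mitochondrial genome numbered 3 higher and 4 lower of 15 with siNT, or 5 and 6 without parental 231 replicate 1, with the ribosomal RNAs MT-RNR2 and MT-RNR1 at -1.32 (SE 0.10) and -1.16 (SE 0.13) and MT-CO3, a subunit of complex IV, at 0.78 (SE 0.10).

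**Figure D4:**
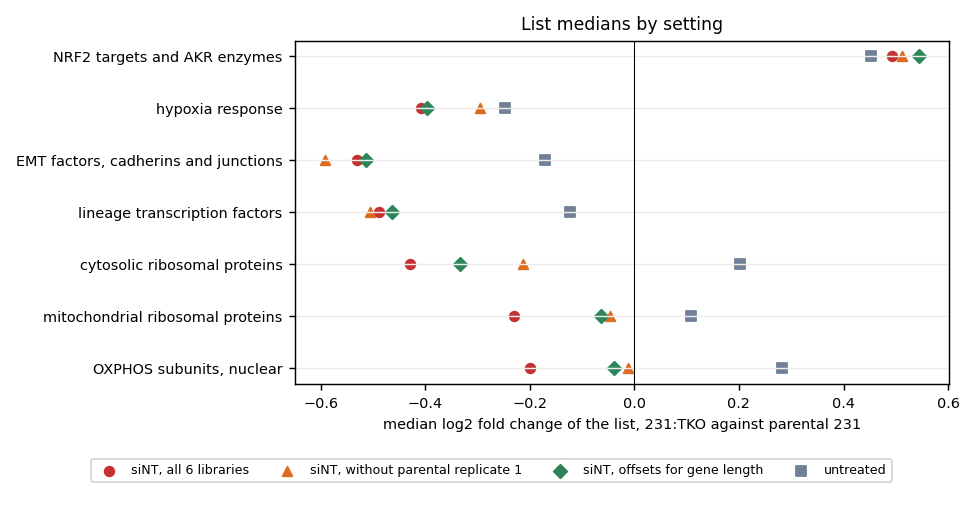
Median log2 fold change of 231:TKO against parental 231 over the tested members of 7 gene lists, with all 6 siNT-treated libraries (circles), without parental 231 replicate 1 (triangles), with offsets for gene length (diamonds) and between untreated cells (squares). The NRF2 list stayed between 0.45 and 0.55, whereas the ribosomal protein and oxidative phosphorylation lists lay below 0 with siNT and above 0 between untreated cells.

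The contrast between untreated cells, made from other libraries, asks which of these differences belong to the genotype irrespective of the siRNA treatment. Untreated libraries were counted as single reads at 18953668 to 29925768 counts, all in the earlier release. Of 19074 genes tested in both contrasts, 1085 were called in both, which is 14.0% of those called with siNT and 56.8% of those called between untreated cells, and 815 of them (75.1%) had the same direction. Across 13372 genes above 1 CPM the correlation of the log2 fold changes was 0.36, as a description over genes that are not independent replicates. In a single model of the 10 libraries, the genotype effect was higher with siNT for 1557 genes (6.2%) and lower for 1987 (7.91%), 14.1% of 25112 genes tested by edgeR's quasi-likelihood test. Without parental 231 replicate 1 these counts were 1828 and 3238.

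Large changes with siNT were looked up between untreated cells, as counts without a test. KCNK5, PPP1R14C, TREML2, SLCO2B1, DGKG, PLA2G4A, SPOCK3, GKN2, TMEM47, SERPIND1, BMP2, MAGEA6, SPP1, PTGS2 and CCL2 had 0 to 4 counts over the untreated libraries and were not tested there. Among 70 genes above 1 CPM whose groups did not overlap and that rose by more than 3 on the log2 scale with siNT, 52 were tested between untreated cells, where 4 were higher and 5 lower. Among 154 genes that fell by more than 3, 133 were tested there, and 58 were lower and 0 higher. Of all genes tested between untreated cells, 5.44% were higher and 4.18% lower. For 45 of the rises and 63 of the falls the difference between treatments passed its test, as it did for 14.1% of all genes. These genes were chosen by their siNT values, which also enter that difference, so the 45 and 63 do not measure how common such differences are.

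Members of the groups above show what such differences consisted of. CPVL, a carboxypeptidase, was at 30.4, 29.0 and 30.1 CPM in siNT-treated 231:TKO and at 0 counts in both untreated 231:TKO libraries, while parental 231 held 42.6, 37.6 and 37.4 CPM with siNT and 24.1 and 24.3 CPM untreated. RASEF, a Rab GTPase, likewise went from 0.0340 and 0 CPM in untreated to 17.6, 17.6 and 17.9 CPM in siNT-treated 231:TKO, above the 3.47, 5.75 and 4.74 CPM of siNT-treated parental 231. Whether the untreated and the siNT-treated 231:TKO libraries came from the same clone is not given in the sources used here. Both genes had next to no counts in untreated 231:TKO and were present in all 3 siNT-treated 231:TKO libraries. SLC22A23, an organic ion transporter homologue, reversed its direction from -3.02 to 3.28, and LPL from -6.67 to 6.05.

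In other genes parental 231 moved. AGR2 was at 0.417 and 0.563 CPM in untreated parental 231 and above 200 CPM in each siNT-treated library, and SPDEF went from 4.33 and 4.86 CPM to 92.6 CPM or more. IGFBP1, an insulin-like growth factor binding protein, was between 10.0 and 17.7 CPM in untreated parental 231 and in all 231:TKO libraries, and at 82.6, 74.9 and 78.5 CPM in siNT-treated parental 231. LPXN, the focal adhesion protein leupaxin, behaved in the same way, with 43.3 ± 2.93 CPM in siNT-treated parental 231 and 8.45 ± 0.08 CPM in siNT-treated 231:TKO. MORC4 and TMEM25 had values of -0.94 and -1.39 with siNT and of 1.09 and 1.19 between untreated cells. For PRKAG1, a subunit of AMP-activated protein kinase, the value was 3.5 with siNT and 0.01 between untreated cells, and 49.5% of its exons were covered by another gene in the later release only. The part of the annotation in this difference was not tested.

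**Figure D5:**
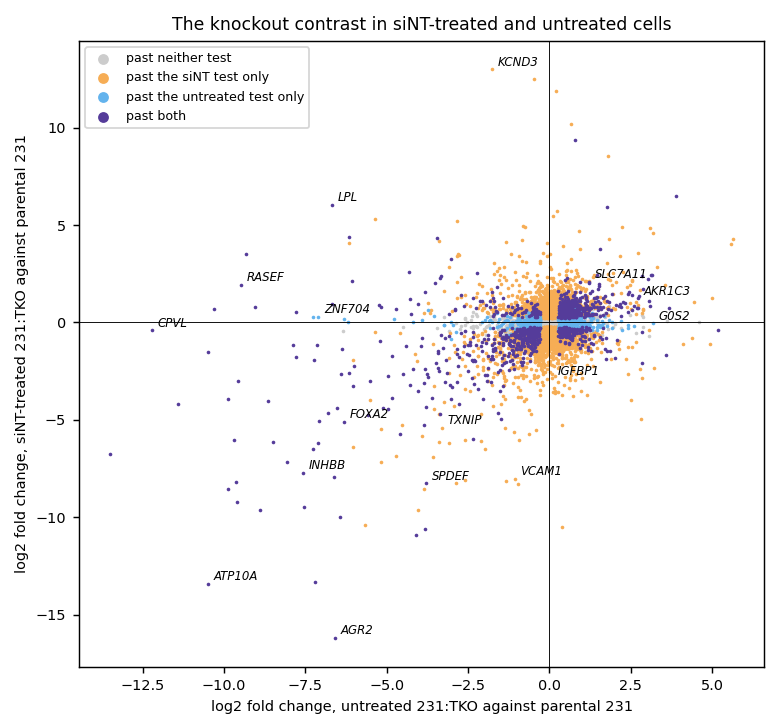
Log2 fold change of 231:TKO against parental 231 in siNT-treated (y axis) and untreated cells (x axis), coloured by the test passed. Each point is a gene tested in both with a mean of at least 1 CPM over the siNT-treated libraries. INHBB, FOXA2, ATP10A and AGR2 were low on both axes, KCND3, LPL and RASEF had positive values with siNT and negative ones between untreated cells, and the correlation over these genes was 0.36.

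The contrast between siMyc-treated cells comes from another 6 libraries, in which the genotypes differ in annotation release and header prefix exactly as with siNT, so these cannot be told apart from genotype here either. Of 22443 genes tested in both, 7340 were called in both, 86.0% of those called with siNT and 77.4% of those called with siMyc, and 7338 had the same direction. The difference of the genotype effect between siNT and siMyc passed edgeR's test at 0 of 25812 genes (0%), with 1039 genes at an unadjusted p under 0.05, and DESeq2 called 6 genes. Without parental 231 replicate 1 with siNT and replicate 3 with siMyc, an omission chosen after seeing the data, 38 genes were called higher and 25 lower. These libraries held 5.71% and 5.85% of their counts in their 10 largest genes, against 5.09% to 5.30% in the other siRNA-treated parental 231 libraries. TXNIP fell by 5.57 on the log2 scale with siMyc, against 5.42 with siNT. Of the 70 large rises and 154 large falls, 67 and 136 exceeded 3 in the same direction with siMyc.

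Regulated genes were gathered along some chromosomes. Among 154 windows of 20 Mb, 16 were shifted upward and 9 downward by more than 0.25 in the median log2 difference in all 3 231:TKO libraries, while the largest shift of a parental 231 library was 0.14. These windows held 12.8% of the tested and 15.6% of the regulated genes, and 7 of the 25 had a shift in the same direction between untreated cells. On chromosome 6 the short arm and the long arm moved apart. In the 3 windows of the short arm, from 0 to 60 Mb, 33 genes were higher and 246 lower of 418 with a mean of at least 1 CPM, with medians from -0.46 to -0.39. In the 6 windows beyond, 195 were higher and 14 lower of 295 such genes, with medians from 0.36 to 0.62. Between untreated cells these medians lay from -0.04 to 0.01 and from -0.28 to 0.01. SPDEF and SOX4 lie on the short arm and ME1 on the long arm, and with offsets for the windows their log2 fold changes were -7.83, -4.65 and 0.65. Other values that the offsets moved by more than 1.5 times included those of ARRDC2 (-0.53), PRDX2 (-0.39), MAX (0.67), CLDN4 (0.31), SLC16A3 (-0.39), BCL2L11 (0.73) and BAK1 (-0.45). On chromosome 2 from 100 to 200 Mb, 5 windows were raised with siNT, by 0.23 to 0.58, and also between untreated cells, by 0.42 to 0.54.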

How the data were processed

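RNA was measured in 16 libraries of MDA-MB-231 cells, of which 6 make up the siNT contrast. The authors deposited 1 table of raw counts per library, with no scaling. Per the file headers and the study's methods, STAR was used for alignment to GRCh38 and featureCounts 1.6.3 for counting on the reverse strand, with a read given to the gene of largest overlap, as read pairs in siRNA-treated and as single reads in untreated libraries. A gene whose exons, or whose overlap with other genes, changed between annotation releases can therefore gain or lose counts with no change in its RNA.

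Groups were taken from the labels. The releases share 60620 genes, 97.4% of them with the same length, and symbols were found for 67.8%. A gene entered a fit if its summed count there exceeded 5, and the test was that of edgeR 4.0.16 under R 4.3.3 (TMM scaling, robust quasi-likelihood test, no covariate), with Benjamini-Hochberg adjustment over all genes tested and a threshold of 0.05. The contrasts were 231:TKO against parental 231 with siNT, untreated and with siMyc, and 2 interaction contrasts between them. SE is the size of the log2 fold change divided by the root of the F statistic. Total counts gave a floor of 3 counts over a group. The step was tested on simulated data.

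Named genes were TXNIP, MYC and those the study names for the knockout, the 15 largest changes in each direction among called genes with a mean of at least 1 CPM, no overlap and the same length in both releases, the 3 largest changes in each direction in each gene list, members of short lists, and the genes with the 5 smallest p-values in each direction of each interaction, under like limits on level and length, GCLM, FTL, NQO1, HMOX1 and NFE2L2 being added after their values were seen. The members and lists were chosen with earlier results of these data known, and lists are described by counts and medians without a test. S-phase and G2/M genes came from Seurat 5.3.0. Alternatives were DESeq2 1.42.0, its size factors, other filters and thresholds, a replicate block, genes of the same length, offsets for windows of 20 Mb, 1 fit of the 12 siRNA-treated libraries and each library left out. Offsets for gene length, genes with unchanged exons and overlaps, and the omission of a pair of parental 231 libraries were added after seeing the data. Some genes that met this rule are not reported here. Guide sequences and other assays of the study were not analysed here.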

Additional observations from a re-analysis of the deposited data

Results flagged for a closer look

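Of the 143 genes looked at one by one, 75 had a genotype effect that differed between siNT-treated and untreated cells by edgeR's interaction test in the 10 libraries, 35 with a higher and 40 with a lower log2 fold change under siNT. Over all 25112 genes the share was 14.1%. The 143 genes were chosen in part by this same test and in part for large changes with siNT, so their count does not measure how common such differences are. The values in parentheses are the siNT-treated minus the untreated log2 fold change of 231:TKO against parental 231. Where all libraries of a group are at 0 counts, as for KCND3 and CPVL, the fitted value depends on the prior count and is no bound on the size. DGKG, SPP1 and PLA2G4A had at most 4 counts over the untreated libraries.

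Differences above 5 upward were found for KCND3 (14.58), LPL (12.75), CPVL (12.28), RASEF (11.50), DGKG (8.61), IGSF3 (8.03), ZNF704 (7.39), SLC22A23 (6.30), RIGI (5.75), SPN (5.47), ID2 (5.36) and SPP1 (5.07). For RIGI and SPP1, and for PRKAG1, TAP1, SLC16A3 and IFITM1 below, the exons or their overlap with other genes differ between the annotation releases of siNT-treated parental 231 and of the other libraries compared here. Smaller upward differences were found for TFAP2C (3.74), PRKAG1 (3.49), MMP16 (2.59), SOX4 (2.02), MLXIPL (1.93), ME1 (1.30), FOXA2 (1.21), HMGCS1 (1.11) and LAMB1 (1.06). Those below 1 were for LSS (0.99), MNT (0.93), MT-CO3 (0.92), MTHFD2 (0.91), SLC7A11 (0.87), HMOX1 (0.86), TFRC (0.80), ERO1A (0.76), RUNX2 (0.73), PDK3 (0.66), SOX9 (0.64), BCL2L11 (0.63), TGFBI (0.57) and KDM3A (0.55). Among these, FOXA2 and SOX4 were lower in 231:TKO with both treatments and less so with siNT, and SLC7A11 was higher with both and more so with siNT.

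Differences below -3 were found for ID4 (-10.61), PLA2G4A (-9.60), VCAM1 (-6.95), C1orf115 (-6.53), ADAMTS1 (-4.64), SPDEF (-4.46), COL1A2 (-3.47) and G0S2 (-3.23). Those between -3 and -1 were for IGFBP1 (-2.95), IFITM1 (-2.83), BST2 (-2.78), LPXN (-2.63), PHGDH (-2.61), TMEM25 (-2.58), ITGA10 (-2.53), RPL41 (-2.28), DUSP6 (-2.22), ANKRD37 (-2.19), AKR1C2 (-2.08), MORC4 (-2.03), RPL31 (-1.96), KRT81 (-1.85), MT-ATP8 (-1.84), ARRDC4 (-1.81), NDUFB7 (-1.55), AKR1C3 (-1.50), NRG1 (-1.42), IL11 (-1.32), MT-RNR1 (-1.30), PSMB10 (-1.25), MXD4 (-1.15) and PSMB9 (-1.03). Those closer to 0 were for KEAP1 (-0.84), MSRB3 (-0.84), BAK1 (-0.78), MXD3 (-0.77), MT-RNR2 (-0.76), PRDX2 (-0.63), SLC16A3 (-0.53) and TAP1 (-0.51). The sign was opposite in the treatments for BST2, MORC4, TMEM25 and the ribosomal protein genes RPL41 and RPL31, which were lower with siNT and had positive values between untreated cells. Values were likewise negative with siNT and positive between untreated cells for KEAP1, NDUFB7, PHGDH, ARRDC4, AKR1C2, ANKRD37, DUSP6, LPXN, IFITM1, ID4, IGFBP1, PSMB9, PSMB10, MT-RNR1, MXD3 and G0S2. Some of these values did not pass the test of their own contrast. The difference between the contrasts also spans the count of read pairs against single reads, the annotation release of the parental 231 libraries and the prefix of the library names, and these cannot be told apart from the siRNA treatment. Whether the untreated and the siNT-treated 231:TKO libraries came from the same clone is not given in the sources used here. With 2 or 3 libraries in a group, the levels of single genes were not searched for outlying samples.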

How the results depend on the processing

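Of the 143 genes examined singly, 129 kept their call and direction in every alternative, as did 1508 of 1541 values. The sign turned for MYC (-0.0107), INSIG2 (-0.01004), MLXIPL (-0.0192) and MLXIP (0.17) with offsets for windows of 20 Mb, and for MLXIP with DESeq2's test (0.000934), with its size factors (0.000910), with more than 5 counts in every library (0.00484) and with the replicate block (0.0153). With single libraries left out, G0S2 ranged from -0.11 to 0.14, the latter without parental 231 replicate 1, MLXIPL from -0.20, without 231:TKO replicate 2, to 0.37, and MLXIP from -0.20, without parental 231 replicate 1, to 0.15, without replicate 3. The call was lost for MT-ATP8 without 231:TKO replicate 1 (0.30), for ARRDC3 without 231:TKO replicate 2 (0.32), for S100A4 without 231:TKO replicate 2 (0.55) or parental 231 replicate 3 (0.50), for MNT without 231:TKO replicate 2 (0.47) or 3 (0.50), for KDM3A without any 1 of the 231:TKO libraries (0.40 to 0.41) and for CLDN3 without any library but parental 231 replicate 1 (0.45 to 0.63). With offsets for windows it was also lost for CLDN3 (0.40), KDM3A (0.29), CPVL (-0.17), KEAP1 (-0.07) and NFE2L2 (0.14). Of 29 lists, 19 kept the sign of their median. The cause of these changes was not tested.

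For siNT-treated 231:TKO against parental 231, DESeq2 gave 3825 higher and 4428 lower genes, and leaving out single libraries gave 2738 to 5060 higher and 3508 to 5815 lower, with the highest counts without parental 231 replicate 1. An adjusted p of at most 0.01 gave 2460 higher and 3311 lower, and a log2 fold change of at least 1 gave 1359 and 1826, since fewer genes pass a stricter limit. The difference between siNT-treated and untreated cells gave 774 higher and 1028 lower genes at an adjusted p of at most 0.01, and 1084 to 1828 higher and 1372 to 3238 lower with single libraries left out. The difference between siNT and siMyc gave 6 higher and 0 lower genes with DESeq2 (749 at an unadjusted p under 0.05), 38 higher and 25 lower without parental 231 replicate 1 with siNT and replicate 3 with siMyc (2202 unadjusted), an alternative added after seeing the data, and 0 in every other alternative (599 to 1716 unadjusted).

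Replicate numbers did not pair the samples: the deviations of same-numbered 231:TKO and parental 231 libraries from their group means correlated at 0.0003, -0.15 and 0.13. A replicate block gave 3831 higher and 4650 lower genes for the siNT contrast, 1394 and 1764 for the difference from untreated cells and 0 for that from siMyc. With only the genes whose exons and overlaps are the same in both releases, an alternative added after seeing the data, 3478 were higher and 4530 lower. Genotype and the prefix of the library names coincide and cannot be told apart. At these depths 3 counts over a group correspond to 0.0292 CPM in 231:TKO and 0.0209 CPM in parental 231, below which no difference could be seen.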
